A study of Mus musculus with 12 samples.

Results

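CD11c cells of the inguinal lymph node of healthy mice at steady state are described here, from RNA sequencing of 4 of the 12 libraries in the series. They are the libraries whose labels give neither a tumor nor a CD40 agonist. The other 8 libraries, 4 from nodes draining a subcutaneous KPC tumor, a mouse model of pancreatic cancer, and 4 from such nodes after a CD40 agonist, enter only a count of extreme libraries near the end. The groups were not compared. The sources used here do not give the genotype, strain, age or sex of the healthy mice, nor how the cells were taken or how pure they were. The libraries are numbered 1 to 4 by the prefix of their titles, and no label says that they came from separate animals, so the spread between them may be technical in part.

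CD11c is the integrin chain encoded by Itgax and marks dendritic cells, which take up antigen, cut it to peptides and show these to T cells on MHC molecules. A lymph node holds resident conventional dendritic cells of type 1, which show antigen of dead cells on MHC class I, and of type 2, which mainly prime CD4+ T cells, besides plasmacytoid dendritic cells, which make interferon, and mature dendritic cells that have migrated in from the skin. Macrophages, natural killer cells and activated lymphocytes may carry CD11c too. MHC class II genes are held active in these cells by the coactivator CIITA, which assembles on factors bound to the X box and the Y box of their promoters.

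Class II genes stood near the top of the abundance ranks, and promoters of 4 family members with very different levels are shown to give the sequence context of these levels. Each is the 150 bases just upstream of the annotated start, 5′ to 3′, from RefSeq on GRCm38.p6. Capitals mark every match on either strand to GATTGG, the core of the Y box (CCAATC on the other strand), or to AACNGATG, part of the X box (CATCNGTT on the other strand).
H2-Aa: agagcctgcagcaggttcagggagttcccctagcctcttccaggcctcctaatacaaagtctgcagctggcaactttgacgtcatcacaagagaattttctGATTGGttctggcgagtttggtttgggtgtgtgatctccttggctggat
H2-Eb1: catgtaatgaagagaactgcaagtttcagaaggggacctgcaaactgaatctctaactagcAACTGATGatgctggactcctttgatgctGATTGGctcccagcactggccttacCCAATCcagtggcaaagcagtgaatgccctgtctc
H2-DMb1: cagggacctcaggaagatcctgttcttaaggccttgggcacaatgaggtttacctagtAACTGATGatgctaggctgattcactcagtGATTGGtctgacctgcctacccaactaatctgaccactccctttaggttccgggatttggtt
H2-Eb2: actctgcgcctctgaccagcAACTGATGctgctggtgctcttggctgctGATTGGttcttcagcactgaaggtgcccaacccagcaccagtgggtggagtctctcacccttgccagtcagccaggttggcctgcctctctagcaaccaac
The windows lie at chr17:34287824-34287973 on the minus strand for H2-Aa, and on the plus strand at chr17:34305717-34305866 for H2-Eb1, chr17:34153041-34153190 for H2-DMb1 and chr17:34325525-34325674 for H2-Eb2. H2-Ab1, H2-Ea-ps and Ciita had no entry, and Cd74 was not among the promoters looked at. Of the 10 H2 genes of the class II list 8 had an entry, with 9 entries among them. GATTGG lay within 250 bases upstream of the start in 8 of the 9 entries, and in 14.6% of 32851 promoters. H2-DMa lacked it before its upstream start and held it 199 bases before its downstream start. AACNGATG was found in H2-Eb1, H2-Eb2, H2-DMb1 and H2-DMb2, and in 1.98% of all promoters. Its first base lay 29 bases upstream of that of GATTGG in H2-Eb1 and H2-Eb2, and 30 bases upstream in H2-DMb1 and H2-DMb2. The same pair of motifs at the same spacing thus occurred before genes at 4547 ± 891 TPM (H2-Eb1) and 52.1 ± 6.53 TPM (H2-Eb2), given as mean ± SD with n = 4 libraries, as are all such values below. Both motifs were chosen after these promoters had been seen, and a match is a description of the letters only.

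The libraries held 32626784 to 54387959 estimated counts. Levels are in TPM, a transcript abundance divided by length and scaled to the same total in every library, so that genes can be set side by side. Short annotated fragments raise the TPM of their gene. A second scale is therefore given for some genes, counts scaled to library size by TMM (CPM) per kilobase of the longest protein-coding transcript. Genes given below in TPM alone may differ as well. Tcf4 was at 83.6 TPM but 30.4 CPM per kilobase, Tap2 at 173 but 57.8 and Hspa8 at 3593 but 1633. In all 4 libraries 14116 genes reached 1 TPM and 6844 reached 10 TPM. Among the 19628 nuclear protein-coding genes, 54.1% reached 1 TPM and 29.5% reached 10 TPM in every library, and the median gene was at 2.56 TPM. These shares are the background for each count of list members at 1 or 10 TPM below. Log2 CPM correlated over 8399 genes at Pearson's r of 0.979 to 0.990 between libraries, a description over genes that are not independent. In bulk RNA, fewer cells of a type and less RNA per cell cannot be told apart.

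Libraries 1 and 2 stood apart from libraries 3 and 4 for part of the genes. Pearson's r was 0.9852 between libraries 1 and 2, 0.9839 between libraries 1 and 3 and 0.9899 between libraries 3 and 4. Malat1, a nuclear noncoding RNA, was at 6930.2, 8196, 2384 and 2682 TPM in libraries 1 to 4, and Neat1 and Xist had the same split. Mitochondrial genes took 4.12%, 2.58%, 2.20% and 1.60% of the counts. Nuclear protein-coding genes held 53.2% of TPM in library 1 and 58.0% to 62.1% in the others, which lowers TPM in library 1 for most of them. For differences between libraries, deviations in log2 CPM are therefore given relative to the median nuclear protein-coding gene of the library, which TMM scaling alone left at -0.15, -0.15, 0.17 and 0.13 log2 CPM in libraries 1 to 4.

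All 4 markers of the labelled cell type were found in every library. Itgax was at 222, 229, 236 and 273 TPM in libraries 1 to 4. Flt3, the growth factor receptor on which dendritic cells depend, was at 111, 136, 165 and 145 TPM, and Zbtb46, a transcription factor of conventional dendritic cells, at 36.5, 48.8, 40.6 and 42.0 TPM. In TPM Flt3 was lowest in library 1 and Itgax highest in library 4. Itgax was spread more widely in CPM per kilobase, at 214 ± 58.4. Its main protein-coding transcript was at 108, 128, 159 and 193 TPM in libraries 1 to 4. Relative to the median gene Itgax deviated by -0.11, -0.24, 0.03 and 0.32 and Flt3 by -0.04, -0.09, 0.15 and -0.02 log2 CPM. Cd74, the invariant chain of MHC class II, was at 8082, 9050.0, 13266 and 12839 TPM, and libraries 3 and 4 lay above libraries 1 and 2.

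By mean TPM, Cd74 ranked 3, Itgax 285, Flt3 547 and Zbtb46 2228 among the nuclear protein-coding genes. By CPM per kilobase they ranked 1, 184, 206 and 1517. A 352-base Itgax transcript with a retained intron held 43.3%, 38.7%, 28.5% and 24.6% of the gene's TPM in libraries 1 to 4, and protein-coding transcripts alone summed to 153 TPM. All 10 members of the core conventional dendritic cell list reached 10 TPM in every library. Among them, Spi1, which encodes the myeloid factor PU.1, was at 249 ± 51.9 TPM and 102 CPM per kilobase, and Id2, a repressor that dendritic cells need, at 223 ± 19.4 TPM.

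**Figure D1:**
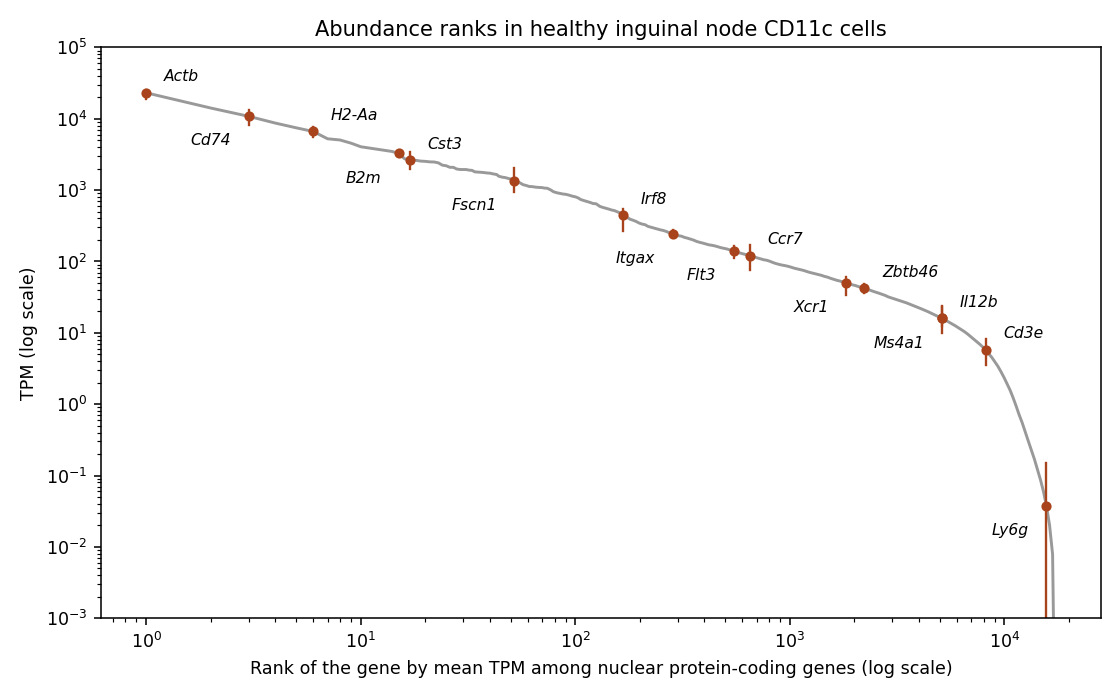
TPM of nuclear protein-coding genes over the 4 healthy libraries (vertical, log scale) against their rank by mean TPM (horizontal, log scale); the grey line is the mean, red points are named genes and red bars run from their lowest to their highest library. Cd74 and H2-Aa lie among the first 10 genes, Itgax at rank 285 and Zbtb46 at rank 2228, while the neutrophil gene Ly6g is far to the right, its bar ending at the lower edge because it was listed at 0 in 3 libraries.

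Cytoskeletal, ribosomal and antigen presentation genes filled the top of the ranks. The first gene was Actb, the cytoskeletal actin, at 23067 ± 2772 TPM, followed by Eef1a1, a translation elongation factor, at 14111 ± 1753 TPM, and Cd74 at 10809 ± 2626 TPM. Tmsb4x, which binds actin monomers, was at 7459 ± 1188 TPM. Of the 30 most abundant nuclear protein-coding genes 14 encoded ribosomal proteins, such as Rpl13a at 8682 ± 841 TPM, and 4 belonged to the class II pathway (Cd74, H2-Aa, H2-Ab1 and H2-Eb1). The 30 genes held 24.2% of nuclear protein-coding TPM and ended with Vim, the filament protein vimentin, at 1942 ± 242 TPM, next to a gene at 1940.3 TPM just outside.

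Other genes among the 30 were the class I light chain B2m, the protease inhibitor Cst3, the chaperone Hspa8 at 3593 ± 249 TPM, Lsp1, a leukocyte protein that binds actin, at 2475 ± 363 TPM, the ferritin light chain Ftl1 at 2406 ± 349 TPM and the lysosomal saposin precursor Psap at 1944 ± 476 TPM. Their order depended on the scale. By CPM per kilobase 18 of the 30 kept a place among the first 30, and Cd74 led at 11807, above Actb at 9730.1 and Eef1a1 at 8045. Rpl13a was at 1156 CPM per kilobase. Ribosomal protein genes have many near-identical copies in the genome, so their single levels are uncertain. Over the 4 libraries the median coefficient of variation of the 30 genes was 14.1% in TPM.

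The MHC class II pathway was expressed in full but for 1 chain, with 14 of 15 list members at 10 TPM or more in all 4 libraries. H2-Aa, the alpha chain of the A molecule, was at 5906, 5633, 7745 and 7218 TPM in libraries 1 to 4, and its partner H2-Ab1 at 4338, 4239, 5943 and 5624 TPM. H2-Eb1, the beta chain of the E molecule, was at 3570.0, 4013, 5342 and 5262 TPM. In these 3 genes libraries 3 and 4 lay above libraries 1 and 2 without overlap. H2-Ea-ps, the annotated pseudogene of the E alpha chain, which mice of the H2b haplotype are known not to express, had a rounded count of 1 in library 1 and 0 in the others.

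The genes that load and edit peptides were lower. H2-DMa and H2-DMb1, chains of the DM molecule that removes the invariant chain peptide, were at 379.8 ± 89.6 and 333 ± 70.9 TPM, and the second beta chain gene H2-DMb2 at 191 ± 40.02 TPM. H2-Oa and H2-Ob, chains of DO, which inhibits DM, were at 103 ± 19.9 and 63.9 ± 5.04 TPM. Ciita was at 52.3, 78.6, 107 and 105 TPM in libraries 1 to 4, lowest in library 1 and near equal in 3 and 4. March1, a ubiquitin ligase that takes class II off the surface, was at 56.2 ± 7.45 TPM, and Ifi30, a reductase that opens disulfide bonds of antigen, at 858 ± 199.97 TPM. Reads of near-identical H2 genes may have been divided between them, so the ratio of H2-DMb1 to H2-DMb2 is uncertain.

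The class II split was narrower relative to the median gene, and library 1 joined the middle. The 14 members had a median deviation of -0.03, -0.25, 0.18 and 0.11 log2 CPM from their own mean in libraries 1 to 4. In library 2 none of the 14 lay above its own mean, in library 3 13 did and in library 4 12. Cd74 deviated by -0.12, -0.30, 0.22 and 0.20, H2-Aa by 0.11, -0.33, 0.16 and 0.06 and Ciita by -0.40, -0.15, 0.27 and 0.27 log2 CPM, so H2-Aa in library 1 lay above library 4 on this scale.

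Cd74 RNA was mostly of the shorter form. The transcript of 215 codons held 83.7% ± 1.1 of Cd74 TPM, and the main transcript of 279 codons, which adds a thyroglobulin-type domain, 16.3% ± 1.1. The latter share was 17.0%, 16.8%, 14.6% and 16.8% in libraries 1 to 4, lowest in library 3, where the level of the gene was highest.

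**Figure D2:**
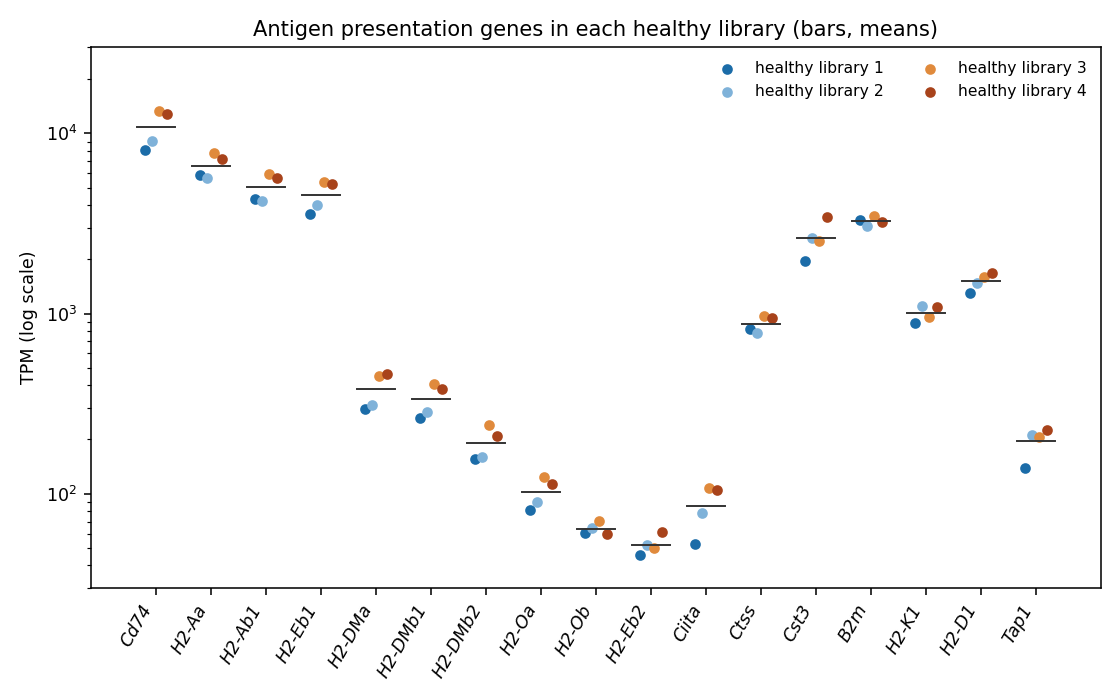
TPM of 17 antigen presentation genes (vertical, log scale) in each of the 4 healthy libraries (coloured points; black bars, means). For Cd74, H2-Aa, H2-Ab1, H2-Eb1 and the H2-DM genes libraries 3 and 4 lie above libraries 1 and 2 in TPM. B2m stayed within 3052 to 3471 TPM. Relative to the median gene B2m was highest in library 1, at 0.32 log2 CPM above its own mean.

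MHC class I genes, which nearly all leukocytes express, were abundant, and their spread between libraries was near that of all genes. All 19 list members reached 10 TPM in every library. B2m was at 3290.0, 3052, 3471 and 3215 TPM in libraries 1 to 4, without a split between libraries 1 and 2 and libraries 3 and 4. Relative to the median gene B2m was less even. It deviated by 0.32, -0.13, -0.04 and -0.16 log2 CPM, highest in library 1, with an SD of 0.22. The heavy chains H2-D1 and H2-K1 were at 1510.2 ± 165 and 1008 ± 104 TPM, the peptide transporter genes Tap1 and Tap2 at 196 ± 39.3 and 173 ± 38.4 TPM, and Tapbp, which ties class I to the transporter, at 432 ± 77.6 TPM. Psme2, a proteasome activator chain, had 1695 ± 162 TPM but 279.7 CPM per kilobase. The list's median SD over libraries was 0.14 log2 CPM and its median deviation stayed between -0.08 and 0.06, beside a median SD of 0.16 over 6627 genes.

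Among 14 lysosomal genes, 13 reached 10 TPM in every library. Cst3, cystatin C, an inhibitor of cathepsins, was at 1949, 2609, 2525 and 3412 TPM in libraries 1 to 4, lowest in library 1 and highest in library 4. Relative to the median gene it deviated by 0.07, -0.19, -0.06 and 0.19 log2 CPM, so that library 2 and not library 1 was lowest on this scale. Ctss, cathepsin S, which degrades the invariant chain, was at 818, 784, 967 and 944 TPM, within a narrow range. Ctsh was at 517 ± 22.0 TPM, Ctsb at 302 ± 51.5 TPM and the legumain gene Lgmn at 57.7 ± 7.06 TPM. Ctsl, the cathepsin of thymic epithelium, had 81.9 ± 33.8 TPM but 13.9 CPM per kilobase. Stfa2, a neutrophil cystatin, was below 1 TPM in all 4.

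Genes of type 1 conventional dendritic cells were all present, 15 of 15 at 1 TPM and 14 at 10 TPM in every library, with a summed level of 1414, 2078, 2447 and 2329 TPM in libraries 1 to 4. Xcr1, the chemokine receptor that defines the type, was at 33.8, 54.7, 59.8 and 51.5 TPM, and Clec9a, a receptor for dead cells, at 59.6, 76.2, 84.5 and 70.5 TPM, both lowest in library 1. The most abundant members were the lipid amidase Naaa at 516 ± 115 TPM, the transcription factor Irf8 at 441 ± 122 TPM and Wdfy4, needed for cross-presentation, at 408 ± 118 TPM. Batf3, which maintains the type, was at 49.0 ± 9.27 TPM, and Itgae, the CD103 chain of its migratory cells, at 14.1 ± 3.02 TPM. Cadm1, an adhesion molecule of the type, was at 43.0 ± 9.61 TPM.

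In library 1, 12 of the 15 type 1 genes lay below their own mean relative to the median gene, with a list median of -0.17 log2 CPM, against 0.04, 0.11 and 0.07 in libraries 2 to 4. Irf8, which plasmacytoid cells also express, deviated by -0.47, 0.05, 0.11 and 0.31, and Wdfy4 by -0.38, -0.06, 0.22 and 0.21. Clec9a deviated less, by 0.01, 0.05, 0.08 and -0.14. By CPM per kilobase Clec9a was at 37.3, below Xcr1 at 63.4.

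Type 2 genes were present at similar median levels, 54.4 TPM for the list against 50.0 TPM for type 1, from which no ratio of the cell types can be read. Of 15 members 13 reached 10 TPM in every library, and the list summed to 969.5, 876, 1209 and 1144 TPM. Cd209a, a lectin, was at 187, 119, 227 and 171 TPM in libraries 1 to 4, and Clec10a, another lectin, at 166, 122, 198 and 193 TPM, both lowest in library 2. Sirpa, the receptor for CD47 that marks the type, was at 114, 155, 186 and 230.4 TPM, lowest in library 1. Itgam, the CD11b chain, was at 22.5 ± 4.78 TPM and Irf4, a factor of the type and of activated cells, at 42.9 ± 7.97 TPM.

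The scale mattered for several type 2 genes. Clec10a was at 47.1 CPM per kilobase and Cd209a at 177, although their TPM was near equal. Esam, an adhesion molecule of splenic type 2 cells, had 54.6 ± 22.7 TPM but 7.66 CPM per kilobase. Clec4a4 was at 6.39 ± 1.33 TPM and is one of a family of close copies whose counts are uncertain. In library 2 only 2 of the 13 members at 10 TPM or more on average lay above their own mean, with a median of -0.22 log2 CPM, and Cd209a deviated there by -0.59 log2 CPM.

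The mature and migratory programme was strongly expressed, with 17 of 18 members at 10 TPM in every library and sums of 5130.0, 6994, 3781 and 4259.7 TPM in libraries 1 to 4. Fscn1, which bundles actin in mature dendritic cells, was at 1193, 2065, 940.2 and 1215 TPM, or 489 CPM per kilobase, and highest in library 2. The T cell attractant Ccl5 was at 921, 1263, 567 and 530.5 TPM and Ccr7, the receptor that guides dendritic cells into the node, at 135, 171, 76.8 and 96.1 TPM, both with libraries 1 and 2 above libraries 3 and 4. Ccl22, which attracts regulatory T cells, was at 273 ± 58.2 TPM, and Ccl17 at 53.7 ± 11.8 TPM. Serpinb6b had 648 ± 193 TPM but 172 CPM per kilobase, and Apol7c 580.0 ± 86.8 TPM and 743 CPM per kilobase.

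Members of this list moved together between libraries. Their median deviation, relative to the median gene, was 0.35, 0.34, -0.50 and -0.25 log2 CPM in libraries 1 to 4, and 17, 17, 1 and 3 of the 18 lay above their own mean. Ccr7 deviated by 0.51, 0.51, -0.68 and -0.33, Ccl5 by 0.53, 0.64, -0.55 and -0.63 and Relb, an NF-kappaB subunit of mature dendritic cells, by 0.09, 0.18, -0.33 and 0.06. Malat1, with 0.85, 0.83, -0.90 and -0.78 log2 CPM, had the same split. The mitochondrial share of counts fell in steps instead, at 4.12%, 2.58%, 2.20% and 1.60%, with library 2 nearer to library 3 than to library 1. The part of RNA quality in the split was not tested. Ccl17 and Il4i1, an amino acid oxidase, did not follow the split, with 0.65, -0.48, -0.17 and 0.01 for Ccl17 and -0.17, 0.07, 0.05 and 0.05 for Il4i1.

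Of 7 Langerhans cell genes 5 (71.4%) reached 1 TPM and 2 (28.6%) reached 10 TPM in every library. Over all nuclear protein-coding genes these shares were 54.1% and 29.5%, so no presence of the cell type is read from the counts. Cd207, which encodes langerin and is also carried by some dermal and resident type 1 cells, was at 26.6, 28.4, 23.7 and 28.4 TPM in libraries 1 to 4, and thus even. Epcam was at 12.7 ± 2.41 TPM and Mfge8, a bridge between dead cells and phagocytes, at 84.0 ± 33.6 TPM. Il34 was below 1 TPM on average.

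Plasmacytoid dendritic cell genes were present at lower levels, with 14 of 15 at 1 TPM and 8 at 10 TPM in every library. Siglech, a receptor that defines the type, was at 32.0, 86.2, 99.2 and 158 TPM in libraries 1 to 4, and Bst2, an interferon-induced tether of virions, at 64.6, 99.7, 107 and 169 TPM. Klk1, a kallikrein, was at 7.79, 19.4, 24.2 and 65.2 TPM. All 3 genes were lowest in library 1 and highest in library 4. Tcf4, the factor that fixes the lineage, was at 83.6 ± 11.4 TPM and lowest in library 1 as well, but highest in library 3.

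The list summed to 327, 535, 619 and 858 TPM in libraries 1 to 4, and all 15 members had their lowest TPM in library 1. TPM is lowered there for most nuclear protein-coding genes, so this count is not particular to the list. Lowest in library 1 were also 27 of 32 cell cycle and 15 of 19 class I genes, but 1 of 18 mature dendritic cell genes. Of the 12 members at 10 TPM or more on average, 0, 3, 8 and 11 lay above their own mean relative to the median gene, with medians of -0.40, -0.08, 0.10 and 0.55 log2 CPM. Siglech deviated by -1.09, 0.10, 0.17 and 0.81 and Cox6a2, a muscle-type cytochrome oxidase chain found in these cells, by -1.34, -0.09, 0.32 and 1.11. Irf7, needed for their interferon response, was at 30.6, 32.6, 51.8 and 75.1 TPM, highest in library 4. Ly6c2, a monocyte gene that plasmacytoid cells also carry, was at 33.9, 59.96, 93.9 and 164 TPM and had its extremes in the same libraries.

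B cell genes were detected in all libraries, 15 of 15 at 1 TPM and 9 at 10 TPM in every library. Ms4a1, which encodes CD20, was at 10.8, 22.8, 20.2 and 9.95 TPM in libraries 1 to 4, and Ighm, the IgM heavy chain, at 155, 288, 319 and 258 TPM. For Ms4a1 libraries 2 and 3 lay well above libraries 1 and 4. Cr2, a complement receptor, had 59.9 ± 45.9 TPM but 6.39 CPM per kilobase. By CPM per kilobase Cd79a, the signalling chain of the B cell receptor, stood at 25.3, beside 214 for Itgax.

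The B cell list moved as a block. In libraries 2 and 3 all 13 members at 10 TPM or more on average lay above their own mean relative to the median gene, and in libraries 1 and 4 none did. The list medians were -0.24, 0.47, 0.29 and -0.52 log2 CPM, and the summed TPM was 398, 841, 794 and 517. Plasma cell genes were low, with Jchain, the chain that joins IgM and IgA, at 2.92 ± 1.17 TPM and Mzb1, a chaperone of antibody secretion, at 4.91 ± 0.894 TPM. Xbp1, a secretory factor that dendritic cells also express, was at 51.9 ± 2.56 TPM.

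T cell genes were also detected, 14 of 15 at 1 TPM in every library. Cd3e, a chain of the T cell receptor complex, was at 3.50, 5.64, 5.63 and 8.31 TPM in libraries 1 to 4, and Cd3d at 32.5, 24.8, 19.5 and 26.6 TPM, or 3.92 and 5.30 CPM per kilobase. Trac and Trbc2, constant parts of the receptor, were at 36.9 ± 12.97 and 48.8 ± 12.8 TPM. Cd4, which part of the resident type 2 cells carry too, stood far above them at 223, 367, 310.3 and 484 TPM, lowest in library 1 and highest in library 4. By CPM per kilobase Cd4 was at 72.5, still above Trac at 19.2 and Trbc2 at 46.2.

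CD8 chains differed in the same way. Cd8a, which resident type 1 dendritic cells share with T cells, was at 64.2, 87.6, 114 and 90.1 TPM in libraries 1 to 4, and Cd8b1, its partner on T cells, at 9.33, 15.4, 22.1 and 28.8 TPM. By CPM per kilobase they were at 96.5 and 23.3. Relative to the median gene, 8 of 9 T cell genes at 10 TPM or more on average lay above their own mean in library 2 and all 9 in library 4, against 1 in library 1 and 3 in library 3. Together with the B cell list, library 2 was thus high and library 1 low for both lymphocyte lists, while library 4 was high for T cell genes and low for B cell genes.

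Natural killer and innate-like lymphocyte genes were near the lower end. Ncr1, an activating receptor of natural killer cells, was at 5.05, 4.32, 7.997 and 6.19 TPM in libraries 1 to 4, and Klrb1c, which encodes NK1.1, at 5.04, 2.33, 5.23 and 4.93 TPM, lowest in library 2. Klrk1 and Klrd1, lectin-like receptors, were higher at 50.4 ± 5.63 and 46.4 ± 9.30 TPM. Il7r, the interleukin 7 receptor, was at 48.8 ± 3.68 TPM, whereas Trdc, the constant part of the delta chain, was at 1.01 ± 0.424 TPM.

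Monocyte and macrophage genes were mixed. Of 12 monocyte genes 7 reached 10 TPM in every library, led in TPM by Plac8 at 219 ± 45.8 TPM, Ms4a4c at 104 ± 22.5 TPM and Ccr2, the receptor that brings monocytes into tissue, at 101 ± 21.4 TPM. Fcgr1, which encodes the Fc receptor CD64, was at 2.71, 2.31, 2.37 and 2.83 TPM and Vcan at 1.58 ± 1.25 TPM. Ccr2, Csf1r and Cx3cr1 are also carried by dendritic cells. The level of CD64, which sets macrophages and monocyte-derived cells apart from conventional dendritic cells, was thus about that of the median gene.

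Of 14 macrophage genes 8 reached 10 TPM in every library. C1qa, a chain of the complement protein that opens the classical pathway, was at 112, 143, 78.7 and 154 TPM in libraries 1 to 4, lowest in library 3, as were C1qb and C1qc at 88.8 ± 21.9 and 78.6 ± 22.2 TPM. Marco, a scavenger receptor of medullary macrophages, was at 17.0 ± 1.12 TPM, and Siglec1, the sialic acid receptor of subcapsular and medullary macrophages, at 4.94 ± 0.835 TPM. Cd68, of lysosomes, was at 115 ± 25.1 TPM.

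Granulocyte genes were mostly low. Beside 54.1% of nuclear protein-coding genes, 4 of 10 neutrophil genes (40.0%) reached 1 TPM in every library. These were Csf3r, which encodes the G-CSF receptor, at 4.69 ± 1.08 TPM, the chemokine receptor gene Cxcr2 at 2.84 ± 0.928 TPM, S100a9 and Ltf. Ltf, lactoferrin of neutrophil granules and secretory epithelium, was at 12.4, 32.9, 30.9 and 4.14 TPM in libraries 1 to 4 but at 1.87 CPM per kilobase on average. S100a8 and S100a9, the calprotectin chains of neutrophils, were at 2.02, 1.31, 2.18 and 0.0616 TPM and 2.11, 3.81, 4.51 and 1.45 TPM in libraries 1 to 4. Ly6g had a rounded count of 1 in library 3 and 0 in the others, where 3 counts correspond to 0.0617 to 0.0919 CPM. Of 9 mast cell and basophil genes only Kit, which dendritic cells and progenitors also carry, reached 1 TPM in every library, at 68.9 ± 8.71 TPM. Cpa3, a mast cell protease, was at 0.854, 0.742, 1.76 and 0.311 TPM and Mcpt8, a basophil protease, at 0.0317 ± 0.0322 TPM.

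Stromal and blood vessel genes were uneven. Glycam1, a mucin of high endothelial venules that L-selectin binds, was at 1994, 1087, 865 and 459 TPM in libraries 1 to 4, and Ccl21a, the chemokine of the same vessels and of reticular stroma, at 170.4, 144, 94.1 and 43.3 TPM. Both were highest in library 1 and lowest in library 4. Pecam1, which leukocytes share with endothelium, was at 41.1 ± 8.03 TPM, and Cdh5, the cadherin of endothelium, at 5.23 ± 1.24 TPM. Among stromal genes Col1a1 and Pdpn were at 0.632 ± 0.3504 and 0.169 ± 0.142 TPM.

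Epithelial keratins were present in 3 libraries and nearly absent from the other. Krt19 was at 26.1, 16.7, 25.7 and 0.769 TPM in libraries 1 to 4, Krt18 at 20.2, 14.1, 18.8 and 1.45 TPM and Krt8 at 14.4, 10.4, 15.0 and 0.509 TPM. These are keratins of simple epithelium, and library 4 was low for all 3. Krt5 and Krt14, of basal keratinocytes, stayed below 1 TPM in every library.

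Fat and red cell genes were low. Of 8 adipocyte genes only Fabp4, which macrophages and vessels also express, reached 1 TPM in every library, at 5.32 ± 2.31 TPM, and Lep, the gene of leptin, was listed at 0 in all 4. Hbb-bs and Hba-a2, globin genes with near-identical copies, were at 5.77 ± 2.94 and 4.24 ± 2.54 TPM. The sums were 9.68, 9.02, 8.81 and 4.00 TPM for the adipocyte list and 29.6, 21.2, 19.5 and 16.1 TPM for the erythroid and platelet list in libraries 1 to 4.

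**Figure D3:**
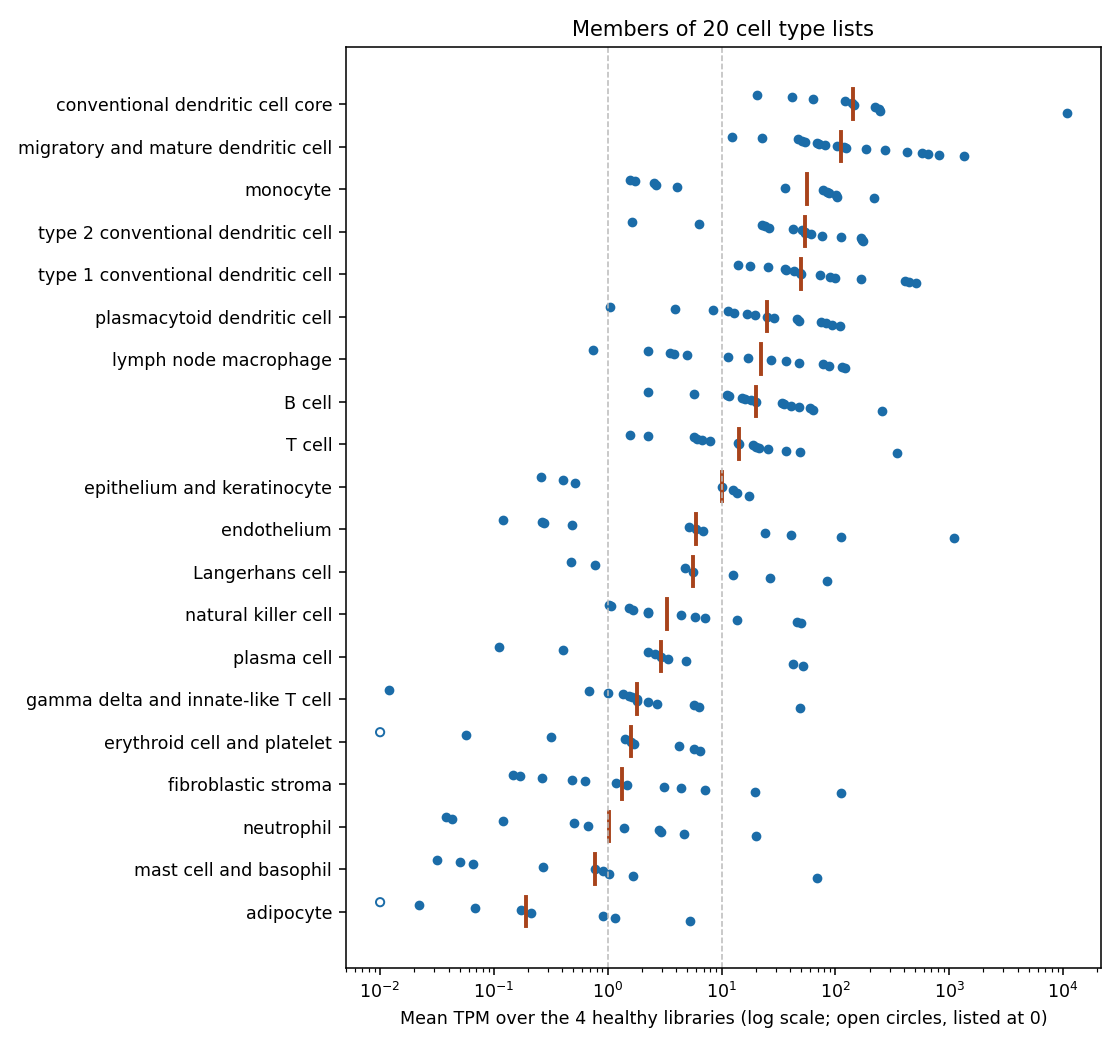
Mean TPM over the 4 healthy libraries (horizontal, log scale) of each member of 20 cell type lists (rows; filled points, open circles for genes listed at 0; red lines, list medians; dashed lines, 1 and 10 TPM). The core conventional, mature and type 1 and 2 dendritic cell lists have medians of 142.4, 111.9, 50.0 and 54.4 TPM, above the plasmacytoid (25.1), B cell (20.1) and T cell (14.3) lists, and the adipocyte list is lowest at 0.192 TPM.

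Of the 20 cell type lists 10 had a median member at 10 TPM or more. The monocyte list, whose upper members are shared with dendritic cells, had a median of 56.8 TPM and the macrophage list 22.0 TPM, while the neutrophil, stromal and erythroid lists had 1.03, 1.33 and 1.60 TPM. Single genes ruled several sums: Glycam1 made up 84.8% of the summed endothelial TPM, Kit 93.5% of the mast cell and basophil sum, Cd4 60.02% of the T cell sum and Ighm 40.02% of the B cell sum.

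The transcription factors of the dendritic lineages were all expressed, 20 of 20 at 1 TPM and 19 at 10 TPM in every library. Irf8 led at 265, 468, 482 and 547 TPM in libraries 1 to 4, lowest in library 1. Stat3, which relays Flt3 signals, and Zeb2, of type 2 and plasmacytoid cells, had 211 ± 30.1 and 204 ± 34.9 TPM but 52.7 and 30.3 CPM per kilobase. Ikzf1, the Ikaros factor of lymphoid and plasmacytoid cells, was at 61.9 ± 17.9 TPM, Notch2, needed by resident type 2 cells, at 50.5 ± 9.88 TPM, Rbpj, its nuclear partner, at 89.3 ± 9.40 TPM, and Klf4 at 24.2 ± 4.62 TPM.

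The interferon regulatory factors Irf1 and Irf2 were at 165 ± 39.7 and 53.5 ± 8.59 TPM. Bcl11a, needed by dendritic cell progenitors, was at 20.3 ± 3.77 TPM, the repressor Bcl6 at 17.5 ± 2.99 TPM, Runx3 at 52.4 ± 18.4 TPM or 8.54 CPM per kilobase, and Nfil3, needed early in the type 1 lineage, was lowest at 6.20 ± 0.879 TPM. Relative to the median gene the list had no common shift, with medians between -0.09 and 0.04 log2 CPM. Within it Irf1 deviated by 0.27, 0.23, -0.43 and -0.07 and Spi1 by -0.29, -0.11, 0.08 and 0.31, in unlike order over the libraries.

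Costimulatory genes were present at rest. Cd40, the receptor that the agonist of the other groups binds, was at 146, 165, 109 and 131 TPM in these untreated libraries, or 41.7 CPM per kilobase, and lowest in library 3. Cd86 was at 76.0, 86.9, 78.9 and 87.2 TPM, within a narrow range, and Cd80 at 9.14 ± 1.28 TPM. Cd48, an adhesion ligand, was at 128 ± 20.8 TPM and Cd83, which steadies class II on the surface, at 96.2 ± 9.69 TPM. Cd70 and Tnfsf18, ligands of activated cells, were below 1 TPM on average.

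Chemokine genes were led by Ccl5, Ccl22 and Cxcl16, the last at 195 ± 37.2 TPM. All 10 chemokine genes at 10 TPM or more on average lay above their own mean in library 1, relative to the median gene, and none did in library 3. Cxcl9, an interferon gamma target, was at 105 ± 34.0 TPM. Among 14 receptor genes Ccr7, Ccr2 and Cxcr4, the receptor of Cxcl12, were highest, Cxcr4 at 72.4 ± 14.7 TPM, and 12 reached 1 TPM in every library. Ccr10 and Ackr3 were below 1 TPM.

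Cytokine genes ranged widely, with 8 of 20 (40.0%) at 10 TPM in every library, beside 29.5% of nuclear protein-coding genes. The list median was 6.73 TPM, beside 2.56 TPM for the median nuclear protein-coding gene. Il12b, the p40 chain of interleukins 12 and 23, was at 14.6, 23.4, 12.4 and 13.4 TPM in libraries 1 to 4, highest in library 2, and Il12a, the p35 chain, at 1.09 ± 0.233 TPM. Il15 had 193 ± 73.2 TPM but 17.7 CPM per kilobase, Tgfb1 was at 81.4 ± 4.94 TPM and Il1b at 72.7 ± 9.43 TPM. Il6, Il10 and Il23a were below 1 TPM on average, and Ifnb1 was listed at 0 in all libraries. Of the receptors of growth factors and cytokines, Ifngr1 was highest in TPM at 179 ± 30.3, whereas by CPM per kilobase Flt3 lay above it, at 192 against 158. All 20 reached 1 TPM in every library.

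Pattern recognition receptors were all detected, 23 of 23 at 1 TPM and 14 at 10 TPM in every library. Clec7a, the beta-glucan receptor dectin-1, was at 97.8 ± 2.78 TPM and Tlr11, a type 1 receptor for profilin, at 35.8 ± 3.37 TPM. Tmem173, which encodes STING, was at 31.9 ± 7.97 TPM, Tlr3 at 25.6 ± 5.57 TPM and Tlr9, for unmethylated DNA, at 13.5 ± 3.30 TPM. Tlr4, the receptor of endotoxin, was lower at 5.63 ± 0.821 TPM.

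Interferon-stimulated genes were present, with a list median of 10.1 TPM, beside 2.56 TPM for the median nuclear protein-coding gene. In every library 24 of 25 members (96.0%) reached 1 TPM, beside 54.1% of nuclear protein-coding genes. Isg15 was at 6.65, 5.98, 9.86 and 11.4 TPM in libraries 1 to 4 and Ifit1 at 2.39, 2.27, 3.93 and 4.83 TPM. Library 4 was highest for 20 of the 25 genes in TPM, a scale on which the share over all genes was not counted. Relative to the median gene, library 4 was highest for 1787 of all 6627 genes at 10 TPM or more on average. The 2 counts are on unlike scales. In library 4, 12 of 13 members at 10 TPM or more on average lay above their own mean relative to the median gene, and in library 2 only 2 did.

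Cell cycle genes were expressed in all libraries and split them. Mki67, the marker of dividing cells, was at 8.31, 12.1, 18.6 and 22.6 TPM in libraries 1 to 4, and Top2a, the topoisomerase of dividing cells, at 23.02, 40.3, 61.0 and 59.96 TPM. In both, libraries 3 and 4 lay above libraries 1 and 2. Relative to the median gene, 4, 3, 19 and 20 of the 24 members at 10 TPM or more on average lay above their own mean, with medians of -0.43, -0.18, 0.28 and 0.21 log2 CPM. The cyclin gene Ccnd3 was at 130.3 ± 23.5 TPM and Pcna, the replication clamp, at 96.5 ± 14.6 TPM. Libraries 1 and 2 were those with higher Malat1 and mature dendritic cell genes, and the part of cell mix or RNA quality was not tested.

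Immediate early genes, which rise within minutes of a stimulus, were moderate. Fos was at 184, 266, 179 and 146 TPM in libraries 1 to 4, Jun at 19.1, 25.8, 22.8 and 32.1 TPM and Egr1 at 9.96, 13.3, 4.22 and 3.95 TPM. For Fos and Egr1 libraries 1 and 2 lay above libraries 3 and 4, and Jun was highest in library 4. Hspa1a, an inducible heat shock gene with the near-identical copy Hspa1b, was at 10.6, 31.4, 48.5 and 73.2 TPM.

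Xist, the RNA of the inactive X chromosome, was at 58.3, 57.9, 31.1 and 32.5 TPM in libraries 1 to 4. The Y-linked genes Ddx3y and Eif2s3y were at 0.0980, 0.219, 0.139 and 0.112 TPM and 0.177, 0.172, 0.0661 and 0.250 TPM, and Uty and Kdm5d at 1.18 ± 0.343 and 0.904 ± 0.459 TPM. All 4 libraries thus had Xist above every Y-linked gene of the list.

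**Figure D4:**
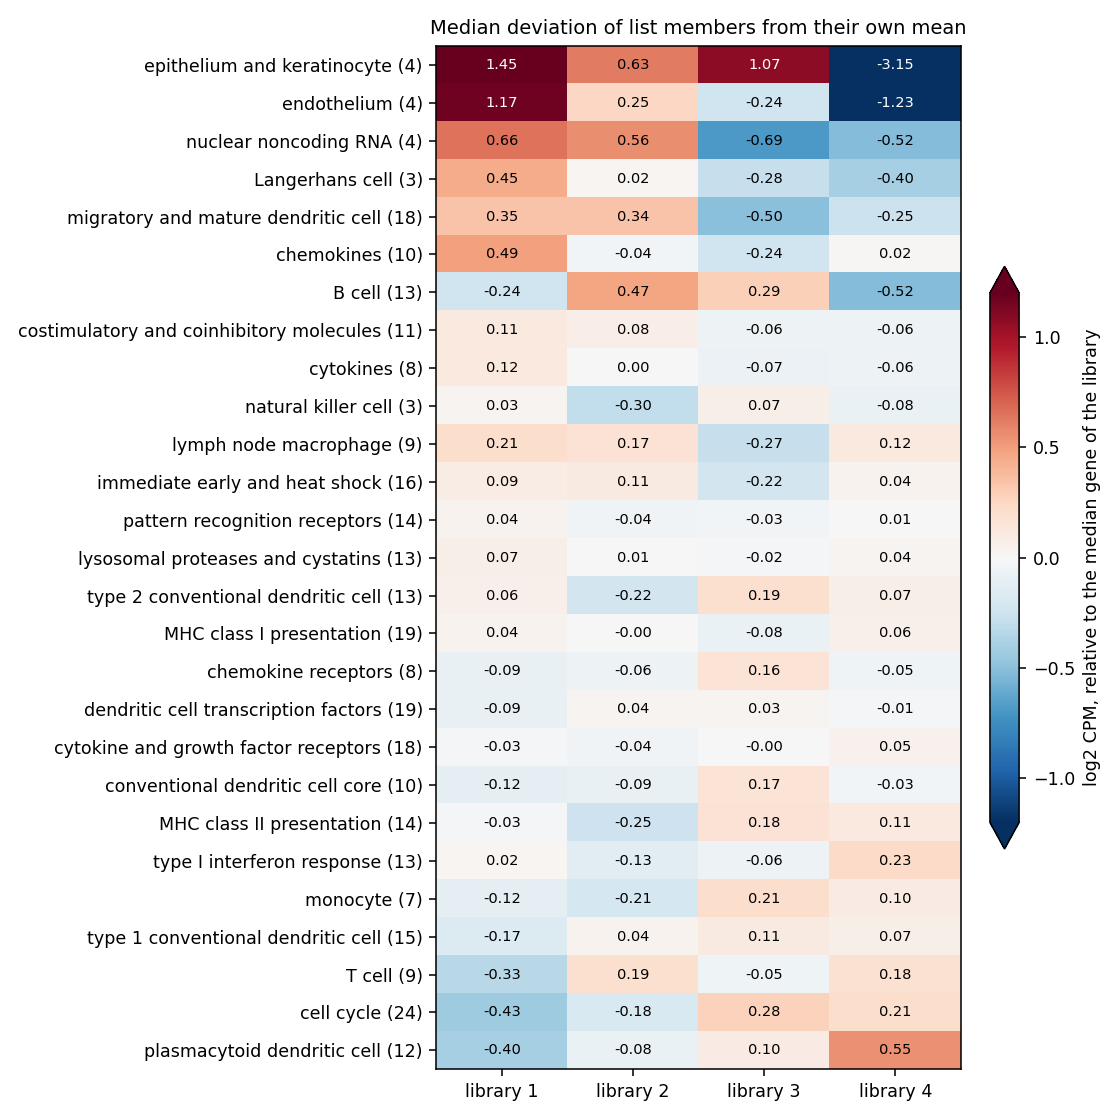
Median deviation of the members of 27 lists (rows; number of members at 10 TPM or more on average in brackets) from their own mean in each of the 4 healthy libraries (columns), in log2 CPM relative to the median gene of the library (colour and printed values). The 4 endothelial list members at this level (Pecam1, Glycam1, Egfl7 and Ccl21a) are high in library 1. Of all 11 endothelial list members, 3 had their highest TPM in library 1 and 4 their lowest. Mature dendritic cell genes are high in libraries 1 and 2, B cell genes in libraries 2 and 3 and cell cycle genes in libraries 3 and 4. Plasmacytoid genes are high in library 4, where epithelial genes, at 1.45 in library 1, lie at -3.15.

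Over 6627 nuclear protein-coding genes at 10 TPM or more on average, the median SD of log2 CPM was 0.23, with quartiles of 0.16 and 0.32, and the biological coefficient of variation from edgeR was 26.5%. The highest library was over 2-fold above the lowest for 324 genes (4.89%) and over 4-fold for 28. Relative to the median gene the median SD was 0.16, with 262 genes (3.95%) over 2-fold. On this scale libraries 1 and 2 were separated from libraries 3 and 4 along the first principal component (61.2% of the variance).

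The widest gene was Ltf, with estimated counts of 194, 241, 435 and 7 in libraries 1 to 4. Krt19, Krt8, Krt18, the secreted peroxidase Gpx3 and Wfdc2, a secreted protein of epithelium, were among the first 7 and all lowest in library 4. Gpx3 was at 17.3, 16.8, 13.8 and 1.19 TPM. In the other 3 libraries these genes kept to a narrower range. Slc12a2, an ion transporter of secretory epithelium, was at 15.7, 14.7, 17.7 and 3.37 TPM and also lowest in library 4.

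A second set was highest in library 1 and lowest in library 4. Ubd, a ubiquitin-like modifier, was at 43.8, 22.98, 12.99 and 6.31 TPM in libraries 1 to 4, Egfl7, an endothelial factor, at 45.0, 33.2, 13.6 and 4.87 TPM, and Enpp2, the autotaxin of high endothelial venules, at 22.0, 14.2, 10.3 and 5.26 TPM. Rps12 was at 600.4, 346, 204 and 99.3 TPM, with copies in the genome that make it uncertain. Klk1, Hspa1a, Hspa1b and the histone gene Hist1h2af, at 14.7, 46.1, 53.7 and 84.5 TPM, had the opposite extremes. Hist1h2ap, Hist2h3b and Hist2h3c2, from families of close copies, were highest in library 4 too. Lars2, a mitochondrial transfer RNA synthetase, was highest in library 2 at 52.1 TPM, and Retnla, a macrophage and adipose resistin-like factor, was lowest there at 4.03 TPM.

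Of the 20 widest genes 11 were lowest and 8 highest in library 4, and 8 were highest in library 1. Of all 6627 genes, taken relative to the median gene, 1605 were lowest and 1787 highest in library 4, and 1924 were highest in library 1. For each of the 20 genes the title prefix of its lowest healthy library, whichever that was, was compared with that of its lowest library in the other groups. The prefix was the same for 16 of 20 genes in the tumor-draining libraries and 12 of 20 in the agonist libraries, beside 63.8% and 57.5% of all 6627 genes at 10 TPM or more on average. For the highest library it was the same for 11 of 20 and 6 of 20 genes, beside 62.6% and 42.3%. Nothing particular to the 20 genes is read from these counts. The labels do not say what the prefix means. After centring on the median gene 16 of the 20 genes were still among the widest 20.

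**Figure D5:**
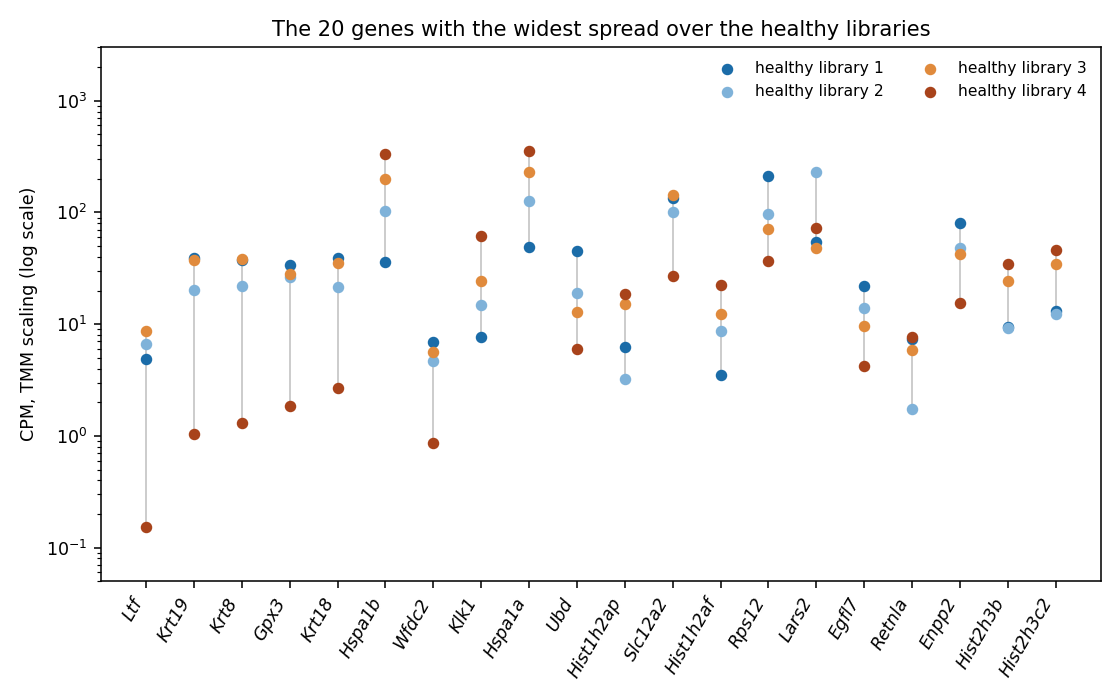
CPM with TMM scaling (vertical, log scale) of the 20 nuclear protein-coding genes with the largest SD of log2 CPM, from the widest at left, in each of the 4 healthy libraries (coloured points; grey lines, range). Library 4 (dark red) is lowest for 11 of the 20 genes, among them Ltf, Krt19, Krt8 and Gpx3, and highest for 8, such as Klk1 and Hspa1a. Relative to the median gene it was lowest for 1605 and highest for 1787 of all 6627 genes.

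The narrowest genes under TMM scaling were Atp6v1b2, a subunit of the proton pump of lysosomes, Dcaf13, Gabpb1, Dtymk, Map4k5, Inpp5e, Tmem131l, Chd2, Ankrd17 and Katna1, with SDs of 0.021 to 0.026 log2 CPM. Atp6v1b2 had 56.8, 76.5, 53.9 and 54.2 TPM in libraries 1 to 4, a wider range than in CPM. None of the 10 was still among the narrowest 10 after centring on the median gene, so these names depend on the scaling.

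The transcripts of other lead genes were shared out as follows. Ptprc, which encodes the leukocyte antigen CD45 and is spliced differently between leukocytes, was mostly the transcript of 1154 codons, with 50.7% ± 5.5 of its TPM. The longest form, of 1293 codons, which B cells favour, held 8.15% ± 2.13, with 4.996% in library 1 and 8.83% to 9.68% in the others. Flt3 was 97.1% ± 1.6 a single transcript of 1000 codons. The main transcript of Irf8, of 424 codons, held 46.9% ± 2.7 and a shorter one of 333 codons 30.4% ± 2.1. The main transcript of Zbtb46, of 600 codons, held 44.2% ± 6.0, between 39.5% and 52.4% in single libraries. Such shares rest on the model that divides reads between overlapping transcripts.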

How the data were processed

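Per the labels' protocols, a Qiagen RNeasy Plus Micro kit was used for the RNA of the CD11c cells, and strand-specific libraries were built with NEBNext Ultra II Directional reagents. The authors deposited an estimated count and a TPM value per transcript for each library, made with Salmon on mm10, per the submitters' processing notes. Both deposited tables carry sailfish, a related program, in their name. The version used, the annotation release and any filters were not given in the sources used here.

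Of 132374 transcripts 131974 were matched by identifier to GENCODE M21 (GRCm38) and summed to genes. The other 400 were left out, with 0.130% to 0.147% of the estimated counts and 0.635% to 0.885% of the deposited TPM. TPM was used as deposited, and estimated counts were rounded for log2 CPM (TMM scaling, prior count 2) and for the biological coefficient of variation, in edgeR 4.0.16 with R 4.3.3. DESeq2 1.42.0 size factors were an alternative. Sums and figures used Python 3.11.15, pandas 2.3.3, numpy 2.4.6 and matplotlib 3.10.9. The spread calculation was tested on simulated data. Promoter sequences came from RefSeq tables and were matched by symbol.

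Only the 4 healthy libraries, with 37560036, 32626784, 54387959 and 48610438 estimated counts, were averaged, and no test was made. No pair was a duplicate, with a chi-square per degree of freedom of 27.7 or more. Named genes were the 4 markers, the 30 most abundant nuclear protein-coding genes, the 3 highest and first 2 members of each list, all class II, transcription factor and sex-linked genes, and the 20 widest and 10 narrowest genes at 10 TPM or more on average. Other list members were named after their values had been seen, and a few members are not reported here. The libraries, lists and markers were chosen with earlier results of these data known.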

Additional observations from a re-analysis of the deposited data

Results flagged for a closer look

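In 249 values checked, 13 had a library far from the other 3, with a gap to the nearest that was wide for the range of all 4 (Dixon's ratio). Chance flags about 1 in 20 such groups, and 13 is about that share. Library 2 was the distant library in 7 of the 13, and each of the others in 2. All 13 are values in TPM. Atp6v1b2, Tmem131l, Ankrd17 and Dtymk, 4 of the 7, are among the 10 genes with the smallest spread in CPM, with SDs of 0.021 to 0.026 log2 CPM over the 10, so library 2 does not stand apart for them on that scale. For Marco and Rpl7 library 1 was highest in log2 CPM relative to the median gene.

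In library 2 Plac8, a monocyte gene, was low at 150.8 TPM against 237.1 to 244.8 TPM, and the natural killer receptor gene Klrb1c at 2.332 TPM against 4.927 to 5.228 TPM. In the same library Atp6v1b2, of the lysosomal proton pump, was high at 76.55 TPM against 53.87 to 56.84 TPM, Tmem131l at 105.6 TPM against 87.27 to 89.88 TPM, and Ankrd17 at 24.02 TPM against 18.06 to 19.05 TPM. Dtymk, a kinase of thymidylate, was at 15.58 TPM there against 12.62 to 13.03 TPM, and the adipokine gene Adipoq at 2.386 TPM against 0.664 to 0.8315 TPM.

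In library 1 Rps27rt was at 4392 TPM against 3027 to 3246 TPM, and H2-Ea-ps at 0.03554 TPM, a single rounded count, against 0. In library 3 Rpl7 was at 2770.0 TPM against 2550.0 to 2583 TPM, and the platelet gene Pf4 was low at 3.407 TPM against 7.309 to 7.868 TPM. In library 4 the scavenger receptor gene Marco was at 18.66 TPM against 16.25 to 16.54 TPM, and the summed adipocyte list was low at 4.003 TPM against 8.806 to 9.684 TPM.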

How the results depend on the processing

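At a detection level of 0.1 TPM 21823 genes were found in all 4 libraries, and 6844 at 10 TPM, against 14116 at 1 TPM and 20147 at an estimated count of 10. The 100 most abundant genes held 45.2% of TPM, or 38.9% with nuclear protein-coding genes alone. Rescaling TPM over nuclear protein-coding genes gave 408.8 TPM for Itgax, 235.9 for Flt3, 71.5 for Zbtb46 and 18246 for Cd74, and raised all 20 cell type sums by 1.68 to 1.76 times. Protein-coding transcripts alone gave 153.5 TPM for Itgax, an alternative chosen after seeing the data, as were centring on the median gene and CPM per kilobase. Leaving out the highest member moved 17 of 20 sums by more than their SD. Leaving out 1 of 4 libraries cannot move a mean by its SD, so it says nothing about these sums. The median SD of log2 CPM was 0.23, 0.24 with DESeq2 size factors, 0.28 with no filter and 0.16 after centring. The biological coefficient of variation was 26.5%, and 33.3% with no filter on low counts. Between 9 and 11 cell type lists had a median member at 10 TPM or more under the alternatives run, against 10. No paired analysis was possible because 1 group is described and no test was made. Reads that match several transcripts limit the levels of near-identical genes, and 4 libraries limit every SD.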
